A study of Mus musculus with 3 samples.

Results

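The synaptotagmins are membrane proteins of synaptic and secretory vesicles, and 10 of their genes were followed here in RNA bound to tagged ribosomes of mouse prefrontal cortex. The members were taken by gene symbol (Syt1, Syt2, Syt3, Syt4, Syt5, Syt7, Syt9, Syt11, Syt13 and Syt17). The count tables held 32531 symbols, and all 10 were found. The choice was by name, but it was made with earlier results of these data known. The mice were adults of the transgenic line Slc17a6-TRAP JX883, in which Slc17a6, the gene of the vesicular glutamate transporter VGLUT2, drives ribosomal protein L10a fused to EGFP. They received no treatment. Ribosomes were captured with antibodies to EGFP, and each of 3 libraries came from a pool of 3 mice. The libraries are the only group: no input RNA, untagged tissue or second region was analysed here, so a value is a level in captured RNA and not an enrichment. Fewer cells that carry a message and less message per cell cannot be told apart in such pools.

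A synaptotagmin has a short part inside the vesicle, a membrane span and a pair of cytoplasmic C2 domains named C2A and C2B. In calcium-binding members, acidic side chains in loops at the tip of each C2 domain hold calcium ions, and the loaded loops enter the target membrane and act on the SNARE proteins that fuse the vesicle. Members that bind calcium with fast kinetics (Syt1, Syt2 and the protein that physiologists called synaptotagmin 9) trigger synchronous release of transmitter, while slower, high-affinity members such as Syt7 serve asynchronous release, facilitation and the refilling of vesicle pools. Others, such as Syt4, Syt11, Syt13 and Syt17, are regarded as calcium-independent and act in the traffic of vesicles, receptors and membrane. The names Syt5 and Syt9 have been exchanged in the literature.

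The coding sequences are printed because the calcium-independent members encode fewer of the calcium-binding aspartates than the fast and slow sensors do. They do not separate the fast from the slow sensors, as the counts below show. In synaptotagmin 1, counted from the start codon, 5 codons of C2A (172, 178, 230, 232 and 238) and 5 of C2B (303, 309, 363, 365 and 371) encode the calcium-binding aspartates. The last 3 of each domain lie in a stretch of 9 codons. The stretch of C2A is given 5′ to 3′ in the coding sense, in mm10 coordinates, for 9 members from GENCODE M21 transcripts, with capitals on the 3 codons aligned with the aspartates of Syt1. Each lies within 1 coding exon.
Syt1 (chr10:108627346-108627372, minus strand): GATtttGACcgcttctccaagcacGAC
Syt2 (chr1:134744432-134744458, plus strand): GACtttGACcgcttctctaagcatGAC
Syt5 (chr7:4542284-4542310, minus strand): GACtttGATcggttctcccgcaacGAT
Syt9 (chr7:107436702-107436728, plus strand): GACtttGACaggttctctcgccatGAC
Syt3 (chr7:44393448-44393474, plus strand): GACttcGACcgcttctcgcggcatGAT
Syt7 (chr19:10442878-10442904, plus strand): GATtatGACcgtttcagccgcaatGAC
Syt11 (chr3:88761819-88761845, minus strand): AGCtttGATcgattctctcgggatGAC
Syt13 (chr2:92946102-92946128, plus strand): ACCtgtGACcgcttctcccgccatAGT
Syt17 (chr7:118433920-118433946, minus strand): GATtttGACaaattctcccgccacTGT

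GAT and GAC are the codons of aspartate. All 6 fast and slow sensors encode aspartate at the 5 C2A positions. In Syt11 the first capital codon, AGC, encodes serine, and the aligned codon of Syt4 encodes serine as well, which leaves 4 of 5 aspartates in the C2A domain of each. Syt13 keeps 3 of 5 in C2A, with threonine and serine at the first and last capital codons. Syt17 keeps 2 of 5.

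The same stretch of the C2B domain is shown for the pair that keeps every aspartate, Syt1 and Syt7, and for 3 calcium-independent members.
Syt1 (chr10:108500693-108500719, minus strand): GACtatGACaagattggcaagaacGAC
Syt7 (chr19:10444146-10444172, plus strand): GACaaaGACaagctcagccgcaacGAC
Syt11 (chr3:88747823-88747849, minus strand): GACttcGATcgcactactaagaatGAG
Syt13 (chr2:92953524-92953550, plus strand): GGCcagGGCgaggaggggccgagcTGC
Syt17 (chr7:118382021-118382047, minus strand): GGCcacAACatgaaaagcagcaatGAC

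In C2B, Syt1 and Syt7 encode aspartate at 5 of 5 positions. Syt2, Syt3, Syt5 and Syt9 encode it at 4 of 5, with the also acidic glutamate at the last. Syt4, Syt11 and Syt17 keep 3 of 5, and Syt13 keeps 1 of 5, with glycine, glycine and cysteine at the codons in capitals. Syt4 also encodes glutamate at the positions of Syt1 codons 365 and 371, so its C2B positions are all acidic. Syt11 encodes asparagine at that of 309 and glutamate at that of 371. The alignment also bears on the exchanged names. Of the coded residues of Syt5 that align with Syt1, 58.8% are the same, against 40.4% for Syt9. Syt9 is closest to Syt3, with 56.3% the same. The gene named Syt5 in these tables is therefore the relative of Syt1 by sequence, and both are kept among the fast sensors below with that limit. Syt1 and Syt2 share 78.9% and Syt4 and Syt11 56.2%.

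**Figure D1:**
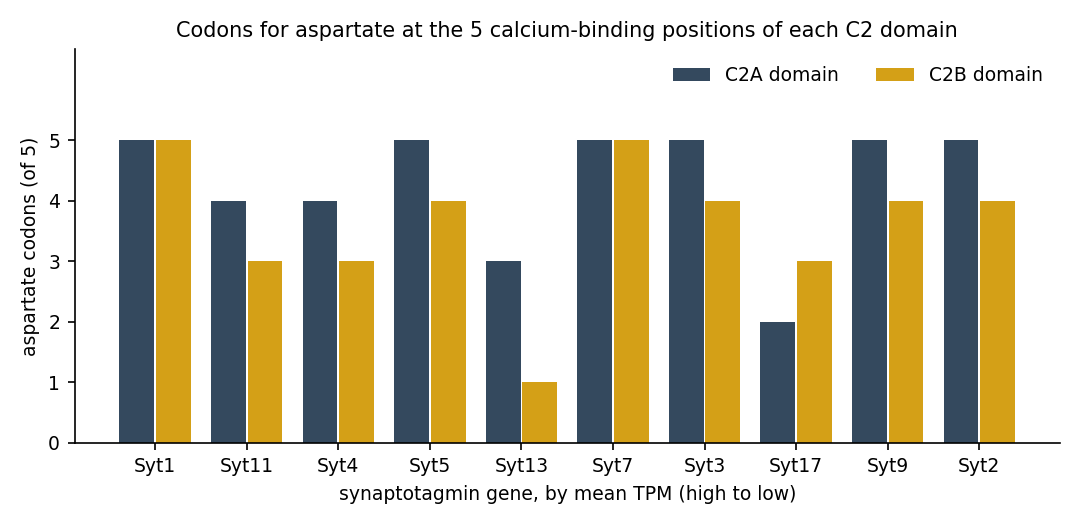
Number of codons for aspartate (of 5, vertical axis) at the positions aligned with the calcium-binding aspartates of Syt1, for the C2A and C2B domains of each synaptotagmin gene, ordered by level. Syt1 and Syt7 have 5 in each domain, and Syt13 has 3 in C2A and 1 in C2B.

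Levels are given as TPM, the counts of a gene divided by its length and scaled to a common total per library, so that genes can be compared per length. The length is that of all annotated exons of a gene merged. Together the 10 genes held 0.271% ± 0.0056 (SD, n = 3) of the counts of named genes. All 10 reached 1 CPM (counts scaled to a common library total, with no length) in every library. Their mean levels ran from 16.9 to 723 TPM with a median of 183 TPM, beside a median of 26.8 TPM over 11595 genes that reached 1 CPM in every library and had a length. P-values below take a library as the unit.

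Among the fast sensors, Syt1, the main trigger of synchronous release in forebrain neurons, stood highest of the family. It had 737, 723 and 709 TPM in replicates 1, 2 and 3, from 15519, 10768 and 14919 counts, a mean of 723 ± 14.2 TPM (SD, n = 3). The 3 libraries were nearly level, and Syt1 exceeded 98.6% of the expressed genes with a length. Syt2, the fast sensor of hindbrain and many inhibitory terminals, had 11.3, 22.8 and 16.5 TPM from 218, 311 and 318 counts, the lowest mean of the 10 at 16.9 ± 5.75 TPM. Replicate 2 held 2.02 times the TPM of replicate 1, the widest gap of any member. Syt1 exceeded Syt2 by 43.3-fold in log2 TPM averaged over the libraries (5.44 ± 0.51 log2 units, higher in 3 of 3 libraries). With the length of the longest transcript the fold was 67.0.

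Syt5, found on synaptic and dense-core vesicles, had 231, 307 and 310 TPM in replicates 1, 2 and 3, a mean of 283 ± 45.0 TPM from 1306 to 1862 counts. Replicate 1 was low and the other libraries lay together. Syt9, known from dense-core vesicles, had 17.1, 17.9 and 24.3 TPM from 172, 127 and 244 counts, a mean of 19.8 ± 3.94 TPM, with replicate 3 high. Of the relatives whose names have been exchanged, Syt5 was 14.0-fold above Syt9 in TPM (3.81 ± 0.23 log2 units, 3 of 3 libraries). The fold was 10.6 with coding length in place of merged exons.

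Of the slow sensors, Syt7, which binds calcium with high affinity and serves asynchronous release and facilitation, had 156, 141 and 132 TPM, a mean of 143 ± 12.4 TPM (SD, n = 3). Its counts were 2956, 1881 and 2492. Syt3, a high-affinity member also known for the endocytosis of AMPA receptors, had 62.1, 91.2 and 61.1 TPM, a mean of 71.5 ± 17.1 TPM. Replicate 2 stood apart upward for Syt3, while Syt7 was highest in replicate 1. Syt1 exceeded Syt7 by 5.06-fold in TPM (2.34 ± 0.10 log2 units, 3 of 3 libraries), or 7.73-fold with the longest transcript and 9.18-fold per coding length. Of the merged exon bases of Syt7, 5.13% were shared with an antisense gene, and strand use in counting is not given in the sources used here.

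**Figure D2:**
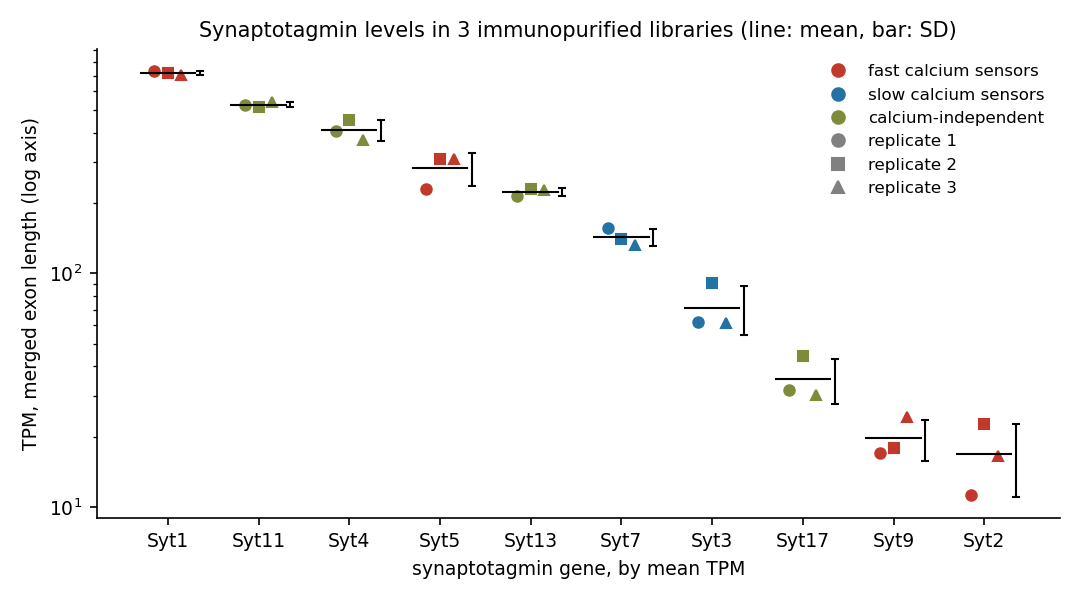
TPM per library on a log axis (vertical) for each synaptotagmin gene (horizontal), coloured by class, with the mean as a line and the SD as a bar (n = 3). Syt1 lies at 709 to 737 TPM and Syt2, the lowest by mean, at 11.3 to 22.8 TPM.

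The calcium-independent members were led by Syt11, an inhibitor of endocytosis and a substrate of the ubiquitin ligase parkin. It had 523, 517 and 541 TPM in replicates 1, 2 and 3, a mean of 527 ± 12.2 TPM from 4809 to 7103 counts, and was second to Syt1 under each length scale used. Syt4, which resides in the Golgi and on dense-core vesicles and is induced by depolarization, had 408, 454 and 370 TPM, a mean of 411 ± 41.8 TPM. It was highest in replicate 2 and lowest in replicate 3. Of its exonic bases, 14.5% were shared with a gene on the opposite strand.

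Syt13, an atypical member, had 214, 230 and 226 TPM, a mean of 223 ± 8.45 TPM (SD, n = 3). Syt17, also called B/K protein, which lacks a membrane span and is anchored by lipid, had 31.8, 44.4 and 30.2 TPM, a mean of 35.5 ± 7.77 TPM from 397 to 418 counts. Like Syt3, it was highest in replicate 2. Syt11 exceeded Syt17 by 14.9-fold in TPM (3.89 ± 0.32 log2 units, 3 of 3 libraries), or 8.80-fold with the longest transcript, and Syt4 lay below Syt11 by 1.29-fold (0.36 ± 0.18 log2 units).

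In the order of mean TPM, Syt1 was followed by Syt11, Syt4, Syt5, Syt13, Syt7, Syt3, Syt17, Syt9 and Syt2. The libraries of neighbours in this order did not overlap for 8 of 9 pairs. Without overlap, the direction is the same in 3 of 3 libraries by construction. The order and its pairs were taken from these same libraries, so the p-values are no separate support for it. The exact sign-flip permutation p (two-sided) was 0.25 for each of those 8, the smallest that 3 libraries can give. With an adjusted p of 0.281 over the 9 pairs, no pair could pass 0.05. Syt9 and Syt2 overlapped and differed by less than their spread (0.26 ± 0.52 log2 units, 2 of 3 libraries, exact permutation p = 0.5). The narrowest of the other gaps was that of Syt5 over Syt13, at 0.33 ± 0.19 log2 TPM.

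Part of this order rested on the length chosen. Syt1, Syt11 and Syt4 were the highest 3 in that order with merged exons, the longest transcript, the longest coding length and CPM. With the longest transcript, Syt4 (310 TPM) and Syt5 (290 TPM) overlapped between libraries, as did Syt3 and Syt17. Per coding length Syt5 (146 TPM) fell behind Syt13 (165 TPM), with libraries that overlapped. Syt17 and Syt3 changed places, also with overlap, and Syt9 (13.4 TPM) was below Syt2 (25.6 TPM). The merged exons of Syt1 span 8338 bases, its longest transcript 4820 and its coding sequence 1263, so its TPM rose from 723 to 944 with the longest transcript.

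**Figure D3:**
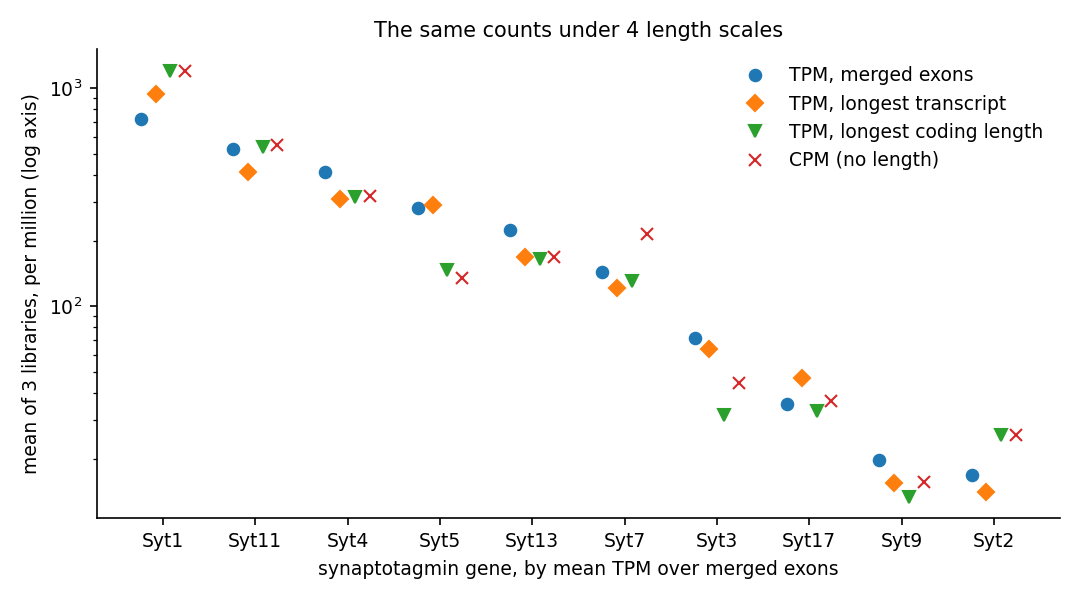
Mean level of 3 libraries (TPM or CPM) on a log axis (vertical) for each synaptotagmin gene (horizontal) with 3 choices of length and with CPM, which uses none. Syt1 is highest on each scale, and the order of Syt5, Syt13 and Syt7 and that of Syt9 and Syt2 differ between scales.

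By class, the calcium-independent members held 49.2%, 48.9% and 48.2% of the summed TPM of the 10 genes in replicates 1, 2 and 3. The fast sensors held 41.7%, 42.0% and 43.8% and the slow sensors 9.14%, 9.10% and 7.97%. Syt1 by itself gave 29.5% ± 1.24 (SD, n = 3), Syt11 21.5% ± 1.07 and Syt4 16.7% ± 1.29. In means, the calcium-independent class held 48.8% and the fast class 42.5%, but with the longest transcript the fast class was the larger, at 52.9% against 39.3%. The slow class stayed the smallest on each scale, at 6.25% to 9.53%. These shares are descriptions with no test.

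**Figure D4:**
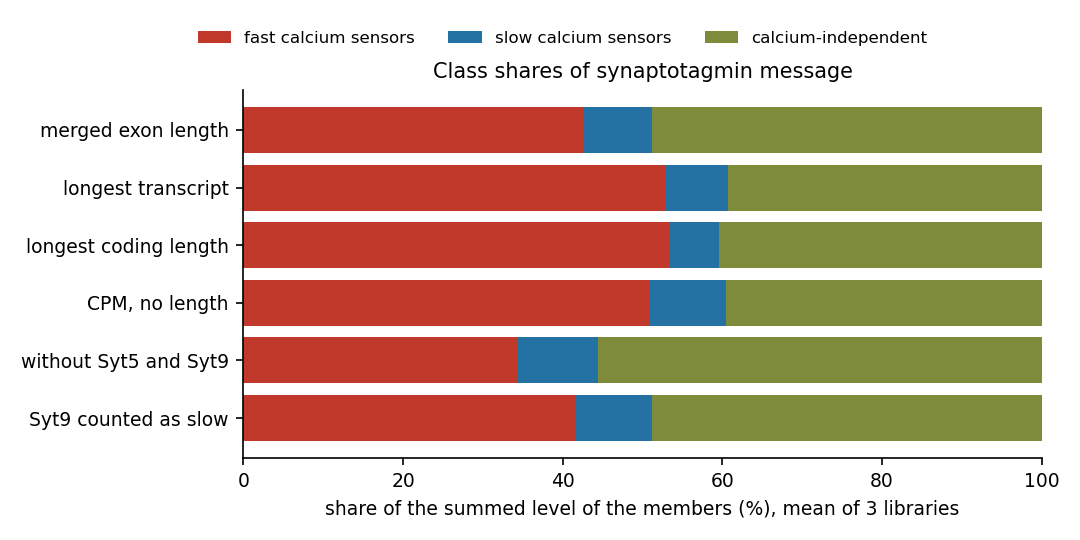
Share of the summed level of the synaptotagmin members (horizontal axis, percent, mean of 3 libraries) held by each class under each length scale and with Syt5 and Syt9 left out or Syt9 moved. The fast class holds 42.5% with merged exons and 52.9% with the longest transcript.

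Variation between libraries was tested with the goodness of fit of a model with no groups in edgeR, which sets each gene against the variation usual at its abundance. No member was called as varying (0 of 10 at an adjusted p under 0.05), where 0.244% of the 14774 genes tested were called (36 genes). At an unadjusted p under 0.05 there were 0 of 10 members in edgeR, beside 7.22% of all genes. In a limma variance test only Syt2 was under it (unadjusted p = 0.0461, adjusted p = 0.987). The share of all genes under it in limma was not counted, so this cannot be set against a background. The smallest adjusted p of a member in edgeR was 0.702, for Syt2, and Syt3 (0.922) and Syt5 (0.932) followed. With replicate 1, 2 or 3 left out, no member was called either, and the smallest adjusted p in edgeR was 0.555, for Syt2 without replicate 3.

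The spread differed among the members. The coefficient of variation of TPM was 1.96% for Syt1, 2.32% for Syt11 and 3.79% for Syt13, where the edgeR trend for genes of their abundance lay at 10.5%, 10.7% and 11.7%. It was 34.1% for Syt2 beside a trend of 19.4%, and 23.9% for Syt3 beside 16.2%. The coefficient of variation of TPM includes counting error, which the trend leaves out, so they are not like measures. Syt4, Syt13, Syt3, Syt17 and Syt2 were highest in replicate 2, Syt11, Syt5 and Syt9 in replicate 3, and Syt1 and Syt7 in replicate 1. No library was highest, and none lowest, for every member.

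**Figure D5:**
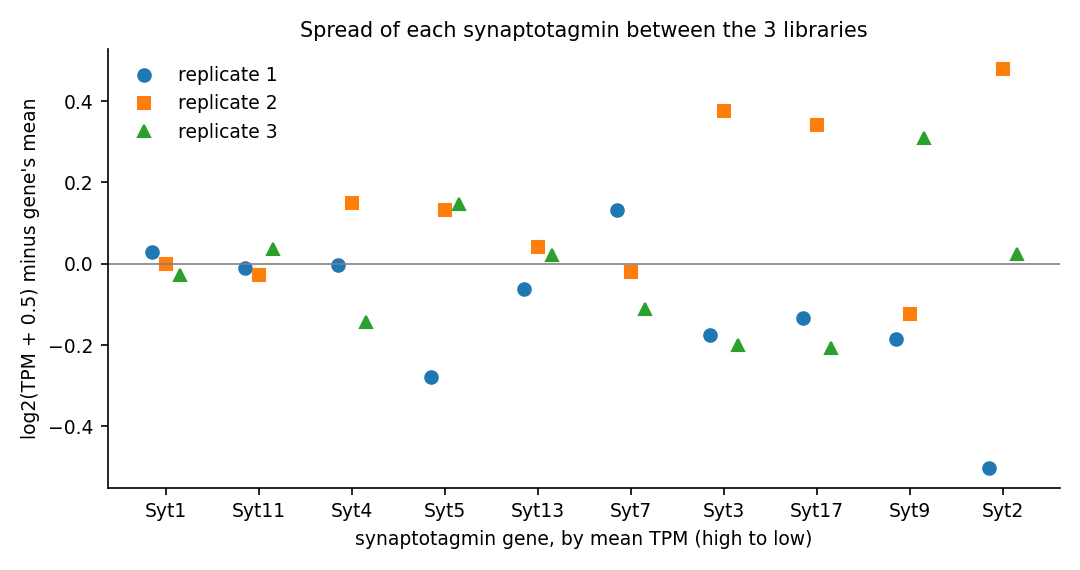
Difference of log2(TPM + 0.5) from the mean of the gene (vertical) for each synaptotagmin gene (horizontal) in replicates 1, 2 and 3. Syt1 and Syt11 stay within 0.04 log2 units of their means, and Syt2 runs from -0.50 in replicate 1 to 0.48 in replicate 2.

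Syt2 is known from fast-spiking parvalbumin interneurons and from thalamic and hindbrain neurons, so markers of such cells are given beside it. All 5 of 5 parvalbumin interneuron markers reached 1 CPM in every library, with summed levels of 192, 245 and 226 TPM in replicates 1, 2 and 3. Pvalb had 38.4, 64.5 and 49.9 TPM and Lhx6 17.4, 30.3 and 19.6 TPM, the order of libraries seen for Syt2. Others on the list did not follow it: Tac1 had 38.9, 48.4 and 54.2 TPM, highest in replicate 3, and Kcns3 3.38, 2.65 and 2.63 TPM, highest in replicate 1. Kcnc1 was nearly level, at 93.6, 99.4 and 99.4 TPM. The summed thalamic markers were 178, 175 and 171 TPM, led by Rora (60.6 TPM), with Lef1 lowest (0.685 TPM). The thalamic transcription factor gene Tcf7l2 had 4.47, 18.5 and 11.7 TPM and was called as varying in edgeR (adjusted p = 0.0429). The part of these cells in the level of Syt2 was not tested.

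Syt4 is induced by activity, and immediate early genes are given for it. Their summed level was 2734, 2793 and 2176 TPM in replicates 1, 2 and 3, led by Egr1 (1317 ± 215 TPM), with Ier2 lowest (3.38 TPM). Egr2 had 43.1, 53.9 and 13.3 TPM and was called (edgeR adjusted p = 0.0126), with the library order of Syt4. Nr4a1, also called (adjusted p = 0.0396), had 174, 100.2 and 76.9 TPM, in another order. Their part in the level of Syt4 was not tested.

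The family has 7 further genes on the list used here, and 5 reached 1 CPM in every library. Over merged exons, Syt10, a calcium sensor of growth factor release in olfactory neurons, was the highest at 39.9 ± 2.97 TPM (SD, n = 3). It lay below the 7 highest members of the 10. Its single annotated transcript has 1845 bases, and its place depended on this length. In CPM, Syt10 (14.7) lay below Syt16 (54.3), Syt6 (43.5) and Syt14 (23.9). Syt8 had 0 counts, which allows up to 3 counts per library, or 0.335 CPM in the shallowest, replicate 2, by counting error alone. Syt15 had 5, 0 and 5 counts. Together the 7 summed to a mean of 129 TPM (range 126 to 132) against 2453 ± 82.8 TPM (SD, n = 3) for the 10 members. None of the 5 tested in edgeR among them was called.

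Among 12 relatives with C2 domains, the gene of rabphilin (Rph3a), an effector of Rab3 on synaptic vesicles, stood at 839 ± 67.4 TPM (SD, n = 3). Its TPM was 1.16-fold that of Syt1 over merged exons but 0.748-fold with the longest transcript and 0.398-fold per coding length, so their order depended on the length. The high-affinity calcium sensor gene Doc2b, a candidate for spontaneous and asynchronous release, stood at 52.8 ± 11.4 TPM, below Syt7 in 3 of 3 libraries. Sytl3 had 0 counts, and 9 of 12 reached 1 CPM in every library. None of the 11 tested in edgeR was called.

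The SNARE and priming proteins on which synaptotagmins act all reached 1 CPM in every library (10 of 10). Snap25 was highest at 18183 ± 673 TPM, 25.1-fold above Syt1 in TPM and 41.8-fold per coding length. The vesicle SNARE gene Vamp2 stood at 2588 ± 58.0 TPM, 3.58-fold above Syt1, and the complexin gene Cplx3 lowest at 39.6 ± 5.13 TPM. Of 6 partners that sort synaptotagmin 1, the vesicle protein gene Sv2b was highest at 413 ± 36.4 TPM and the adaptor gene Ston2 lowest at 9.58 ± 2.81 TPM. None of these 16 genes was called in edgeR.

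For the highest member of each class, the genes nearest in level are named, by the smallest mean absolute difference of log2(TPM + 0.5) over 3 libraries. Beside Syt1 they were Maged1 (0.033) and Ldha (0.039), beside Syt7 Gnl1 (0.018) and Psma3 (0.020), and beside Syt11 Ttc3 (0.051) and Clstn1 (0.053). Likeness here is of level alone.

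The depth of the libraries ranged from 8964137 counts of named genes (replicate 2) to 12648577 (replicate 3). Glutamatergic markers were present, with Camk2a at 1934 TPM, Slc17a7 at 285, Neurod6 at 225 and Tbr1 at 165 TPM. Other cells were also represented: the summed GABAergic markers were 1770 to 2395 TPM (Sst highest, Vip lowest), striatal 614 to 1030 (Penk highest, Adora2a lowest), astrocyte 413 to 481 (Slc1a2 highest, Aldh1l1 lowest) and microglial 51.2 to 83.4 TPM (Ctss highest, C1qa with 0 counts). The oligodendrocyte myelin gene Mbp stood at 104 ± 15.9 TPM (SD, n = 3). Syt11 and Syt4 are also known from glia, and the cell of origin of their messages was not tested.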

How the data were processed

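RNA-seq of immunopurified ribosomes was analysed in 3 libraries that form 1 group. The values deposited by the authors are raw counts by gene symbol, and the submitters' processing notes name STAR 2.0.0e, HTSeq and mm10; how reads were assigned to genes and strands is not stated there. Lines that name no gene held 27.8% ± 0.56 of counts (SD, n = 3) and were left out.

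CPM used the total of named genes. TPM used merged exon lengths of GENCODE M21 on mm10, matched by symbol, for genes that held 90.2% ± 0.86 of named counts, and log2 values a pseudocount of 0.5. Variation between libraries was tested across all genes in edgeR 4.0.16 (TMM, trended dispersion, deviance against chi-square with 2 degrees of freedom, Benjamini-Hochberg at 0.05, at least 10 counts in 1 library) and checked on simulated data. Alternatives used limma 3.58.1 and DESeq2 1.42.0 size factors, other lengths, pseudocounts and count minimums. Scripts ran in Python 3.11.15 (pandas 2.3.3, biopython 1.88) and R 4.3.3. Coding sequences were aligned as encoded proteins (BLOSUM62) with Syt1.

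The members and lists were chosen with earlier results of these data known. Named were all members, every gene of lists of 5 or fewer, otherwise the highest and lowest by mean TPM, called list genes and the 2 nearest genes in level to the highest member of each class. Some genes that this rule names are left out. Doc2b, Vamp2, Mbp, Syt6, Syt14, Syt15, Syt16 and Sytl5 were named after their values were seen. By the labels the libraries are separate pools of mice, and p-values measure the spread between them.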

Additional observations from a re-analysis of the deposited data

How the results depend on the processing

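The count of varying genes (36) depended on the method: 1097 with a common dispersion, 12 in the limma variance test, 18 at an adjusted p of 0.01 and 16 to 21 with a replicate left out. The count of synaptotagmins was 0 under every alternative run. Class shares moved with the length. The fast class held 52.9%, 53.4% and 50.9% with the longest transcript, the longest coding length and CPM, the slow class 7.78%, 6.25% and 9.53%, and the calcium-independent class 39.3%, 40.4% and 39.5%, so that the larger of the fast and calcium-independent classes changed on all 3. With Syt5 and Syt9 left out, the classes held 34.4%, 9.96% and 55.6%. With Syt9 among the slow sensors, a choice made after seeing the data, the slow class held 9.54%. Of 81 alternative values for neighbouring members, 75 kept their direction and 6 reversed by the construction of the length: Syt5 minus Syt13 was -0.19 per coding length and -0.33 in CPM, Syt13 minus Syt7 -0.35 in CPM, Syt3 minus Syt17 -0.053 per coding length, and Syt9 minus Syt2 -0.87 per coding length and -0.66 in CPM (log2). Depth limits Syt2 and Syt9 most, with 127 to 318 counts per library. Libraries could not be paired between groups because they form 1 group. Differences between members were taken within each library.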

Other observations

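Among the C2-domain relatives, Doc2g had the smallest p for variation between libraries. Its level was 21.8, 17.2 and 2.87 TPM in replicates 1, 2 and 3, not past the threshold over all genes in edgeR (adjusted p = 0.0791). Of its exonic bases, 63.5% were shared with another gene on the same strand (Gm49405), which limits its counts. Doc2g is also a marker of olfactory bulb output neurons, and other markers of that list were lowest in replicate 3 as well: Cdhr1 had 134, 111 and 20.0 TPM (edgeR adjusted p = 2.28e-15), Eomes 26.5, 8.62 and 6.10 TPM and Tbx21 5.41, 2.92 and 0 TPM. Trh, on the same list, was highest there (55.8, 111 and 145 TPM). The 10 synaptotagmins had no such drop, the lowest of them in replicate 3 relative to its mean being Syt17 at -0.21 log2 units.

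The synaptotagmin-like gene Sytl5 had 17.9, 43.3 and 16.7 TPM in replicates 1, 2 and 3 (edgeR adjusted p = 0.528). It was highest in replicate 2, as were the members Syt2, Syt3, Syt4, Syt13 and Syt17. The other members were highest in replicate 1 or 3.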
